A study of Mus musculus with 16 samples.

Results

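Chemokines and chemokine receptors were followed in RNA sequencing libraries of mouse 4T1 tumors grown at 2 sites, with and without paclitaxel. The members were chosen by gene symbol, as every gene named as a Ccl, Cxcl, Cx3cl or Xcl ligand or as a Ccr, Cxcr, Cx3cr, Xcr or Ackr receptor in both the subcutaneous and the liver expression table. They were 57 of the 17064 genes that these tables share, with 35 ligands (21 CC, 12 CXC, 1 CX3C and 1 XC) and 22 receptors, 4 of them atypical. The 16 libraries came from 4 groups: 5 liver tumors after paclitaxel (post_Liver), 5 liver tumors before it (pre_Liver), 3 subcutaneous tumors after paclitaxel (post_SC) and 3 subcutaneous tumors before it (pre_SC). 4T1 is a single established mouse mammary carcinoma line, and all hosts were wild-type BALB/c females that entered the study at 6 weeks of age. For the tumors called subcutaneous, 400000 cells were placed in a mammary fat pad, and for the liver tumors 200000 cells were injected beneath the liver capsule, so no group arose by spread from a primary tumor. Paclitaxel, which stabilises microtubules and arrests dividing cells, was given into the peritoneum at 10 mg/kg on 5 occasions a week over 2 weeks, and control mice received PBS. Tumors grew for 15 days, were digested to a cell suspension and frozen before poly(A) RNA was taken. The labels do not state whether the untreated tumors were of the same age as the treated ones, nor that each library came from its own mouse, so p-values here speak only of library-to-library spread.

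The suspensions held host cells beside carcinoma cells, and their mixture differed between libraries. Epcam, a carcinoma marker, lay between 86.1 and 706 TPM in post_Liver and between 22.6 and 431 TPM in pre_Liver, against 769 to 999 TPM in post_SC and 849 to 1121 TPM in pre_SC. Alb, the albumin gene of hepatocytes, lay between 8406 and 61994 TPM in pre_Liver and at no more than 4.32 TPM in any subcutaneous library. Post_Liver replicates 2 and 3 stood apart from the other liver libraries, with 890 and 748 TPM of Alb, and they resembled each other more than any other pair of libraries in a group (r = 0.992 across genes, with 0.702% of genes over 2-fold apart). Whether they came from separate tumors cannot be told from these values, so n = 5 may overstate the independent libraries of post_Liver. In pools of this kind, fewer cells of a type and less RNA per cell cannot be told apart. Read depth is unknown, because the deposited values are TPM or FPKM.

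Chemokines are small secreted proteins that guide leukocytes along gradients, and each acts on one or more receptors that couple to inhibitory G proteins. The CXC ligands that bind Cxcr2 recruit neutrophils, Cxcl9 and Cxcl10 bind Cxcr3 on activated T and NK cells and are induced by interferon gamma, and Ccl2, Ccl7 and Ccl12 draw Ccr2-bearing monocytes. Atypical receptors bind ligands without G protein signalling and remove or transport them. In breast carcinoma the Cxcl12 receptor Cxcr4 is known for its part in the homing of tumor cells, and in the liver Cxcl12 is made by stromal and endothelial cells.

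The promoters of 4 CXC ligands are shown because 3 of these genes, Cxcl10, Cxcl2 and Cxcl3, were called in a comparison described below, Cxcl9 is the fellow marker ligand of Cxcl10, and all lie on chromosome 5. Cxcl10 and Cxcl9 are the interferon-induced pair, and Cxcl2 and Cxcl3 are Cxcr2 ligands known as NF-kB targets. The sequences are the 250 bases before each RefSeq transcription start in GRCm38.p6, written 5′ to 3′ on the gene's own strand, and the capitals mark matches to an interferon-stimulated response element core or to the NF-kB consensus. Cxcl10 lies at chr5:92348890-92349139 on the minus strand, Cxcl9 at chr5:92328080-92328329 on the minus strand, Cxcl2 at chr5:90903649-90903898 on the plus strand and Cxcl3 at chr5:90785851-90786100 on the plus strand.
Cxcl10: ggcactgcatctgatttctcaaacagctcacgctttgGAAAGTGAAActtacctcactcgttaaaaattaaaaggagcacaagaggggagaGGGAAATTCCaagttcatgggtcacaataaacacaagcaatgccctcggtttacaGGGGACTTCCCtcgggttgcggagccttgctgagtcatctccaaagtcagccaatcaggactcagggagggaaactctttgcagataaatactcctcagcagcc
Cxcl9: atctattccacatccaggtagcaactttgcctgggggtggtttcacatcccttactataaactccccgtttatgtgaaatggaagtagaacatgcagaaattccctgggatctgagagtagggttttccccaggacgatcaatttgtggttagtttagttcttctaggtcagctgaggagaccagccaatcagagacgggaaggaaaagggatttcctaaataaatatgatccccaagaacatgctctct
Cxcl2: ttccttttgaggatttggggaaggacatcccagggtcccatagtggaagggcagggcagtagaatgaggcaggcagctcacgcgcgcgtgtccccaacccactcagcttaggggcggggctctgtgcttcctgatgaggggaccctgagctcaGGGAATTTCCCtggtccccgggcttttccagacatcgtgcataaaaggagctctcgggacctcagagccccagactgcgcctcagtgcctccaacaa
Cxcl3: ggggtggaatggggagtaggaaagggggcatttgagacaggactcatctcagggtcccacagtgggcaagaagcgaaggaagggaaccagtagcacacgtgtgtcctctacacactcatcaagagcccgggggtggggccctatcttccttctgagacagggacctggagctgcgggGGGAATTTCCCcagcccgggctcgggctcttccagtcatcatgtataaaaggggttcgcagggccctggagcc

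A match to the response element core, which is GAAA, any 2 bases and GAAA on either strand, began at position −213 from the Cxcl10 start, and NF-kB matches began at −159, −104 and −103, the last pair overlapping. The Cxcl9 window held no match to either, nor to the gamma-activated site TTCNNNGAA. Overlapping NF-kB matches began at −97 and −96 from the Cxcl2 start and at −73 and −72 from the Cxcl3 start, on the same 11 letters in both genes. Promoters were found for 44 of the 57 members. The response element core stood in 3 of these genes (Cxcl10, Ccl19 and Cxcl14) and in 2.98% of all 32851 promoters of this length, and the gamma-activated site stood in 3 (Ccl17, Ccr6 and Cxcl14) and in 7.02% of all. The NF-kB consensus stood in 11 of the 44 genes, on 21.6% of the members' 51 promoters and on 7.25% of all promoters. A match describes the letters of the window and not a site in use.

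Levels were compared between genes in TPM recomputed over the 17064 shared genes, a scale that corrects for gene length. The family was broadly detected, with 30 members at a mean of at least 10 TPM over the 16 libraries, 19 between 1 and 10 TPM and 8 below 1 TPM. Ccl28, a mucosal chemokine, and Ccl27b did not pass 1 TPM in any library. Ccl8, a monocyte-attracting CC ligand, led the ligands at a mean of 701 TPM. It was followed by Ccl5 (217 TPM), which binds Ccr1, Ccl6 (165 TPM), a myeloid ligand, and Cxcl16 (163 TPM), the membrane-bound ligand of Cxcr6. The other ligands of the leading 10 were Cxcl12 at 130 TPM, Cxcl10 at 108 TPM, Cxcl9 at 93.8 TPM, Cx3cl1, the ligand of Cx3cr1, at 75.9 TPM, Cxcl14 at 56.7 TPM and Ccl12 at 55.7 TPM. Receptors lay lower. Cxcr4 led them at 41.6 TPM, ahead of Ccr1 at 29.1 TPM, the monocyte receptor Ccr2 at 24.1 TPM, Cxcr3 at 21.5 TPM, the Cxcl12 scavenger Ackr3 at 18.7 TPM, Cxcr2 at 18.1 TPM and Cx3cr1, a monocyte and macrophage receptor, at 16.6 TPM.

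**Figure D1:**
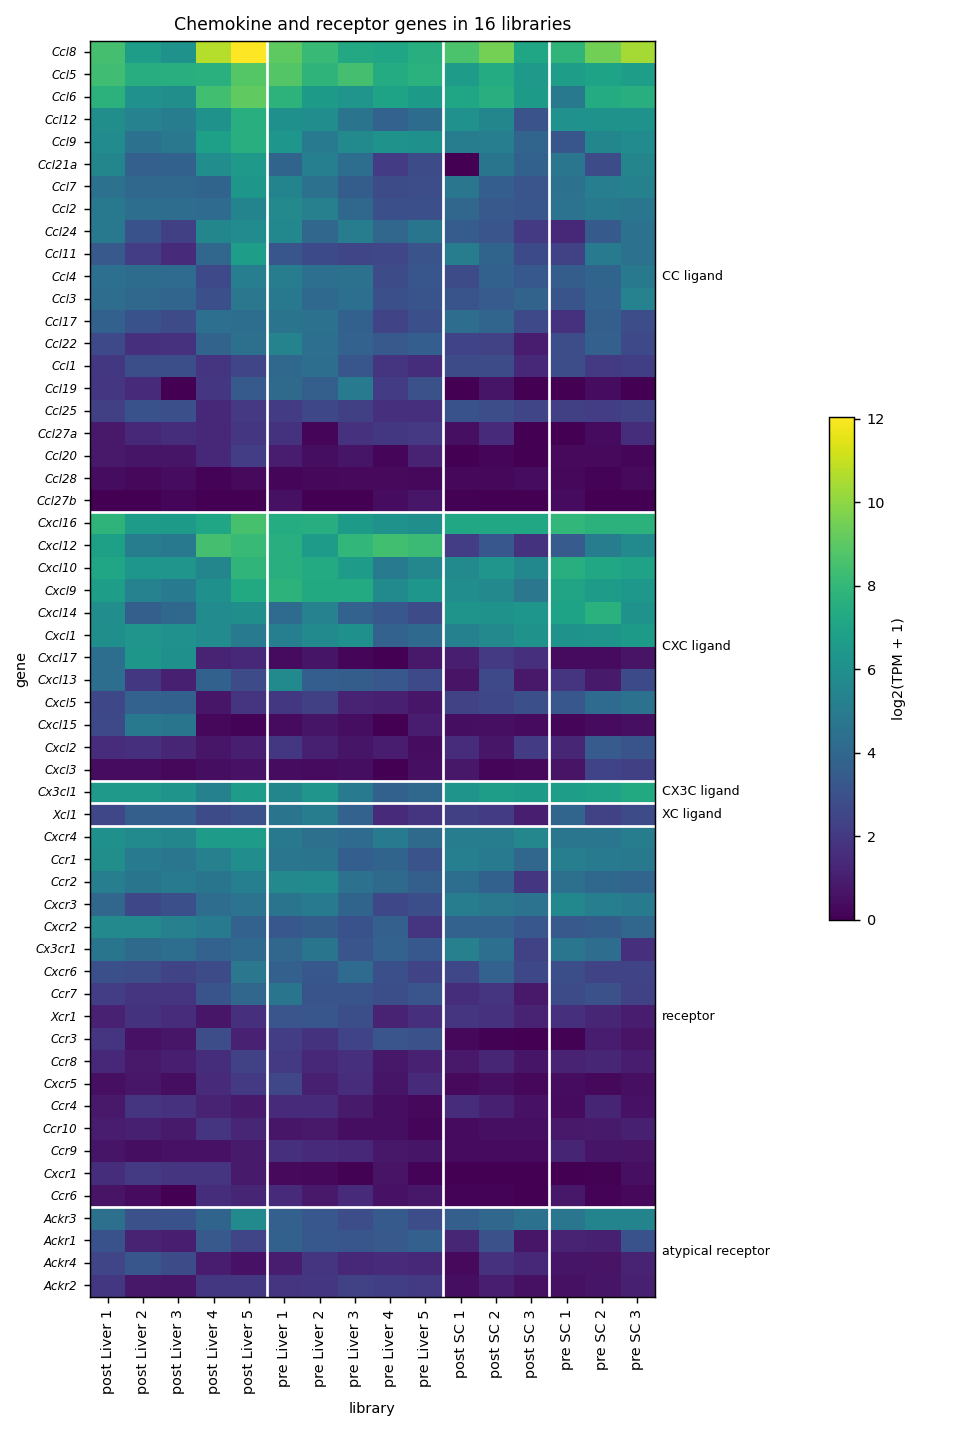
Heat map of 56 of the 57 chemokine and receptor genes (down, by class and falling mean) in the 16 libraries (across, by group), coloured by log2(TPM + 1). Ccl8 reaches the top of the scale in post_Liver replicate 5 at 4187 TPM, Cxcl12 is bright in the pre_Liver libraries and dark in the subcutaneous ones, and Cxcl15 and Cxcl17 stand out in post_Liver replicates 1 to 3.

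The summed ligand level and its leading gene varied strongly among treated liver tumors. The 35 ligands summed to between 991 and 7326 TPM in post_Liver (median 2052) and to between 1120 and 2610 TPM in pre_Liver (median 1598), against 888 to 1806 TPM in post_SC and 1466 to 2857 TPM in pre_SC. Ccl8 alone took between 7.23% and 57.2% of the ligand sum in post_Liver and between 9.41% and 20.0% in pre_Liver, against 15.7% to 40.4% in post_SC and 16.1% to 47.7% in pre_SC. Its level was 354, 108, 71.6, 1646 and 4187 TPM in post_Liver replicates 1 to 5 and 521, 285, 150, 136 and 185 TPM in pre_Liver replicates 1 to 5. It was 391, 730 and 140 TPM in post_SC and 236, 706 and 1362 TPM in pre_SC. The groups overlapped at both sites, and 2 treated liver libraries held the highest values of all.

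The receptors summed to between 218 and 453 TPM in post_Liver and 122 to 290 TPM in pre_Liver, against 140 to 227 TPM in post_SC and 229 to 255 TPM in pre_SC. By group median, Cxcr4 led in post_Liver at 64.1 TPM and in post_SC at 33.8 TPM. Ackr3 led in pre_SC at 41.7 TPM. The leading receptor of single libraries varied within each group, so these orders describe medians only.

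The first comparison asked how the family changed in subcutaneous tumors after paclitaxel, on the TPM of the subcutaneous table. Of the 43 members tested, 3 ligands fell and no member rose. Cxcl10, a Cxcr3 ligand, fell 2.53-fold, Ccl2, the main Ccr2 ligand, fell 2.33-fold and Cxcl16 fell 1.53-fold, on the log2(TPM + 1) scale. The share called, 3 of 43 or 6.98%, lay beside 6.96% of all genes tested (2.68% higher and 4.28% lower), and a call required an adjusted p under 0.05 in limma (Benjamini-Hochberg over all genes). The other 14 members had a mean below 1 TPM in these libraries and were not tested. Post_SC minus pre_SC differences were below 0 for 33 members and above 0 for 10, with a median of −0.60 beside −0.03 over all genes. For 14 of the 43 members, or 32.6%, treated and untreated libraries did not overlap, beside 34.7% of all genes.

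Cxcl10 measured 52.4, 74.1 and 47.2 TPM in post_SC and 182, 141 and 120 TPM in pre_SC. All treated libraries lay below all untreated ones. It averaged 57.9 ± 14.2 TPM in post_SC and 147 ± 31.6 TPM in pre_SC (SD, n = 3 each), and the difference was −1.34 ± 0.21 (SE, in log2 units, with a limma adjusted p = 0.0179). Cxcl9, its neighbour and fellow Cxcr3 ligand, measured 57.1, 48.4 and 25.9 TPM in post_SC and 126, 93.1 and 82.0 TPM in pre_SC, again without overlap. Its difference of −1.23 ± 0.30 missed the threshold (limma adjusted p = 0.0512) and passed it with a filter at a mean of 5 TPM (0.0453) or with median-of-ratios scaling (0.0442). Cxcr3 itself had a difference of −0.38 ± 0.22 (limma adjusted p = 0.305).

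Ccl2 measured 14.2, 9.0 and 8.08 TPM in post_SC and 22.5, 27.9 and 24.7 TPM in pre_SC. The groups stood well apart, with 10.4 ± 3.31 TPM in post_SC and 25.0 ± 2.72 TPM in pre_SC (SD, n = 3 each) and a difference of −1.22 ± 0.22 (SE, in log2 units, with a limma adjusted p = 0.0254). The other Ccr2 ligands did not pass the test, with −1.16 ± 0.40 for Ccl7 (limma adjusted p = 0.118) and −1.24 ± 0.68 for Ccl12 (0.277). Ccl12 was 65.0, 43.2 and 7.15 TPM in post_SC and 64.8, 68.5 and 68.0 TPM in pre_SC, so the spread lay in the treated group. Ccr2 was at 19.2, 12.0 and 2.68 TPM in post_SC and at 20.1, 14.7 and 13.9 TPM in pre_SC, with overlapping groups. Cxcl16 measured 141, 146 and 138 TPM in post_SC and 242, 209 and 205 TPM in pre_SC, the tightest groups of the 3 called ligands, and differed by −0.62 ± 0.10 (limma adjusted p = 0.0215). Its receptor Cxcr6 was at 4.73, 12.3 and 5.04 TPM in post_SC and at 6.23, 4.44 and 4.35 TPM in pre_SC, and the groups overlapped. Each of the 3 calls was lost without any one pre_SC library, where no member was called. Of all genes, 78 of 13401, 193 of 13420 and 94 of 13323 were called without pre_SC replicate 1, 2 and 3. The main fit called 931 of 13383. The calls of Cxcl10 and Cxcl16 were lost without post_SC replicate 1 too (limma adjusted p = 0.0528 and 0.0515), where 389 of 13422 genes were called.

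Other members lay close to the threshold and were chosen for naming after their values were seen. Ackr3, the scavenger of Cxcl12, had 11.3, 14.2 and 20.7 TPM in post_SC and 24.3, 40.7 and 41.3 TPM in pre_SC, a difference of −1.15 ± 0.28 (limma adjusted p = 0.0501). Cxcl12 had 3.49, 8.34 and 2.34 TPM in post_SC and 9.83, 32.1 and 52.3 TPM in pre_SC, a difference of −2.36 ± 0.61 (limma adjusted p = 0.0604). Neither gene's groups overlapped. Ccr7, the lymph node homing receptor, differed by −1.29 ± 0.31 (limma adjusted p = 0.0517) and Cxcl5, a Cxcr2 ligand, by −1.35 ± 0.34 (0.0572). Cxcl17, a mucosal ligand, went the other way, at 0.994, 3.10 and 2.15 TPM in post_SC and 0.266, 0.252 and 0.519 TPM in pre_SC, a difference of 1.14 ± 0.32 (limma adjusted p = 0.0710). It passed the filter only through post_SC. Ccl8 did not pass the test, at 382, 713 and 136 TPM in post_SC and 230, 689 and 1326 TPM in pre_SC (−0.83 ± 0.74, limma adjusted p = 0.495). Cxcr4 had a difference of 0.38 ± 0.18 (limma adjusted p = 0.230) and Cxcr2 of −0.01 ± 0.23.

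Of cell type markers in the subcutaneous tumors, 4 of 8 endothelial genes were higher, and their sum was 218 to 261 TPM in post_SC and 86.0 to 131 TPM in pre_SC. Of 10 macrophage and monocyte genes 1 was lower, with sums of 2256 to 2743 TPM in post_SC and 2089 to 2477 TPM in pre_SC, and 1 of 6 tested dendritic cell genes was lower, with sums of 21.5 to 33.5 TPM in post_SC and 55.8 to 64.7 TPM in pre_SC. None of 9 tested neutrophil genes passed, with a median difference of −0.64 over those tested. The summed level of all 10 was 268 to 311 TPM in post_SC and 406 to 746 TPM in pre_SC. These sums did not overlap, which also held for 34.7% of all genes taken singly. Of 8 fibroblast genes, Pdpn was lower, and the sums overlapped at 1342 to 1808 TPM in post_SC and 1595 to 2334 TPM in pre_SC. None of 10 T and NK cell genes passed, with sums of 79.0 to 185 TPM in post_SC and 69.3 to 97.2 TPM in pre_SC. Among these 6 lists, Cd209a, Camp and Klrb1c in post_SC and Clec9a in pre_SC stayed below 1 TPM, and no marker was at 0 in a whole group. Their part in the fall of the 3 ligands was not tested.

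**Figure D2:**
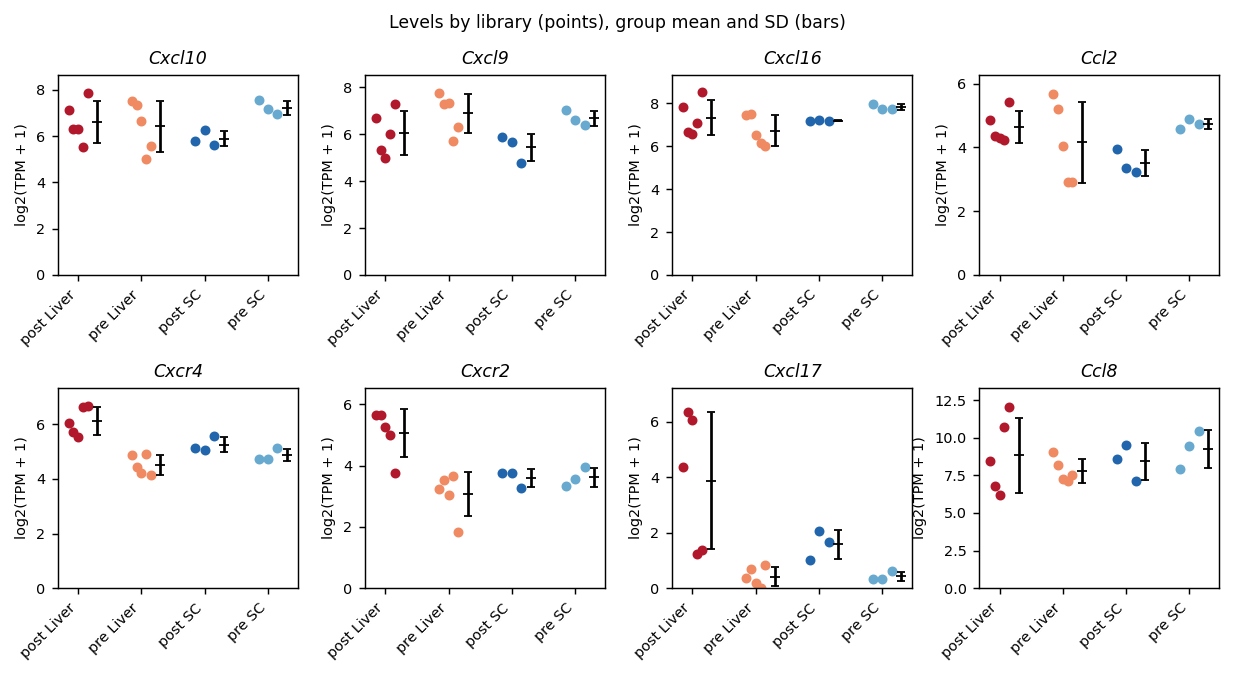
Level of 8 members by library (points, log2(TPM + 1) over shared genes) with the group mean and SD as bars, for post_Liver and pre_Liver (n = 5 each) and post_SC and pre_SC (n = 3 each). Cxcl10, Cxcl16 and Ccl2 separate the subcutaneous groups, Cxcr4 and Cxcr2 separate the liver groups, and Ccl8 spreads most in post_Liver, where it spans 71.6 to 4187 TPM.

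In liver tumors, the corresponding comparison used the FPKM of the liver table. Of 45 members tested, 2 receptors rose after paclitaxel and no member fell: Cxcr4, the Cxcl12 receptor, rose 2.92-fold and Cxcr2, the neutrophil receptor for Cxcl1, Cxcl2, Cxcl3 and Cxcl5, rose 3.68-fold on the log2(FPKM + 1) scale. None of the 30 ligands tested passed, with 4 of them at an unadjusted p under 0.05 in limma, a cut at which the share of all genes was not computed. The share called, 2 of 45 or 4.44%, lay beside 3.64% of all genes (2.24% higher). The groups did not overlap for 3 members, Cxcr4, Cxcr2 and Cxcl17, or 6.67%, beside 6.63% of all genes. The members' median difference was 0.19, and that of all genes was 0.37. Scaling by median of ratios brought the median of all genes to 0.03 and that of the members to −0.20, so the liver differences are read relative to that shift.

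Cxcr4 measured 32.0, 27.5, 24.0, 49.9 and 49.7 FPKM in post_Liver replicates 1 to 5 and 15.2, 10.6, 9.16, 14.5 and 8.65 FPKM in pre_Liver replicates 1 to 5. Every treated library lay above every untreated one. The means were 36.6 ± 12.4 FPKM in post_Liver and 11.6 ± 3.04 FPKM in pre_Liver (SD, n = 5 each), and they differed by 1.55 ± 0.25 (SE, in log2 units, with a limma adjusted p = 0.0123). Its ligand Cxcl12 measured 56.3, 17.3, 15.0, 183 and 140 FPKM in post_Liver and 102, 51.7, 132, 167 and 151 FPKM in pre_Liver, with overlapping groups (−1.08 ± 0.70, limma adjusted p = 0.266). The low Cxcl12 values lay in post_Liver replicates 2 and 3, the libraries that were also lowest in Alb.

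Cxcr2 measured 25.0, 26.6, 20.0, 16.1 and 6.28 FPKM in post_Liver and 4.5, 5.45, 3.83, 5.86 and 1.36 FPKM in pre_Liver. The groups did not overlap, but post_Liver replicate 5 lay just above the highest untreated library. The means were 18.8 ± 8.13 FPKM in post_Liver and 4.20 ± 1.78 FPKM in pre_Liver (SD, n = 5 each), and they differed by 1.88 ± 0.40 (SE, in log2 units, with a limma adjusted p = 0.0339). CXC chemokines outside the name rule, such as Ppbp, are described further below. Among the Cxcr2 ligands within the family, Cxcl1 had 0.81 ± 0.45 (limma adjusted p = 0.213) and Cxcl5 had 0.93 ± 0.48 (0.196), while Cxcl2 and Cxcl3 were below the filter. Cxcr1, the related receptor that shares ligands with Cxcr2, was below the filter as well, at 0.98, 1.67, 1.38, 1.33 and 0.4 FPKM in post_Liver and 0.12, 0.1, 0.03, 0.27 and 0.05 FPKM in pre_Liver.

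Both liver calls depended on the scaling. With median-of-ratios scaling the differences were 1.16 for Cxcr4 and 1.54 for Cxcr2 (limma adjusted p = 0.0867 and 0.0681), and with quantile normalization 1.29 and 1.58 (0.0512 and 0.0602). After rescaling without liver-function genes they were 1.31 and 1.76 (limma adjusted p = 0.0600 for both). Against pre_Liver replicates 1 to 3 alone, the differences were 1.54 and 1.69 (limma adjusted p = 0.0825 and 0.168). Cxcr4 kept its call without any single library, whereas Cxcr2 lost its call without pre_Liver replicate 1, 3, 4 or 5 or without post_Liver replicate 1, 2 or 3 (limma adjusted p = 0.0568 to 0.101). Without post_Liver replicates 2 and 3 together Cxcr4 was still called, and Cxcr2 had a difference of 1.60 (limma adjusted p = 0.125).

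Neutrophil markers also differed between the liver groups. Of 10 neutrophil genes, 9 were higher in treated liver tumors, and their summed level was 3698 to 22288 TPM in post_Liver and 198 to 1518 TPM in pre_Liver, with none of the 10 below 1 TPM in either group. S100a8, a neutrophil calprotectin subunit, had a difference of 5.11 and Csf3r, the receptor for granulocyte colony-stimulating factor, of 1.84. Of 10 macrophage and monocyte genes none passed, and they summed to 1554 to 8105 TPM in post_Liver and 1357 to 2690 TPM in pre_Liver. Of 6 Kupffer cell genes 1, Timd4, was lower, and the 4 found in both tables summed to 23.9 to 208 TPM in post_Liver and 105 to 243 TPM in pre_Liver. None of 12 hepatocyte genes passed, with a median difference of −2.19 and sums of 3989 to 90384 TPM in post_Liver and 36260 to 154748 TPM in pre_Liver. No gene of 8 in the carcinoma epithelial list passed, with a median difference of 1.38. Their sums were 1127 to 3834 TPM in post_Liver and 585 to 3081 TPM in pre_Liver. The part of these cells in the rise of Cxcr4 and Cxcr2 was not tested.

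Among liver members that missed the threshold, Ccr1, a receptor of monocytes and neutrophils, had 30.5, 15.6, 13.6, 18.9 and 29.2 FPKM in post_Liver and 13.7, 12.3, 5.94, 6.84 and 3.94 FPKM in pre_Liver, with groups that nearly separated (1.29 ± 0.34, limma adjusted p = 0.0614). Cxcl17 measured 9.83, 43.7, 34.9, 0.690 and 0.790 FPKM in post_Liver and at most 0.400 FPKM in pre_Liver, a difference of 2.90 ± 0.90 (limma adjusted p = 0.0834). Its high values lay in post_Liver replicates 1 to 3. Cxcl15, a CXC ligand of mouse lung epithelium, showed the same 3 libraries high, at 2.70, 14.8, 13.2, 0.1 and 0.05 FPKM in post_Liver and at most 0.480 FPKM in pre_Liver (1.70 ± 0.76, limma adjusted p = 0.154). These genes and Ackr1, Ccl19 and Cx3cl1 below were chosen for naming after their values were seen. Cxcl17 and Cxcl15 passed the filter only through post_Liver. Ackr1, an endothelial scavenger, had −1.06 ± 0.36 (limma adjusted p = 0.1), Ccl19, a Ccr7 ligand, −1.55 ± 0.54 (0.105) and Cx3cl1 1.26 ± 0.46 (0.112).

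Cxcl10, Cxcl9, Ccl2 and Ccl8, the family's 4 marker ligands, did not pass the test in liver tumors. Cxcl10 measured 69.5, 42.4, 41.2, 23.1 and 116 FPKM in post_Liver and 98.2, 82.8, 53.4, 15.4 and 24.6 FPKM in pre_Liver (0.19 ± 0.56, limma adjusted p = 0.796). Cxcl9 measured 51.1, 20.8, 16.3, 33.0 and 77.3 FPKM in post_Liver and 115, 79.9, 85.6, 26.1 and 41.4 FPKM in pre_Liver (−0.83 ± 0.50, 0.241). Ccl2 measured 13.9, 10.4, 10.1, 9.19 and 20.8 FPKM in post_Liver and 26.7, 18.6, 8.21, 3.27 and 3.42 FPKM in pre_Liver (0.43 ± 0.52, 0.526). In the untreated group all 3 were lowest in replicates 4 and 5. Of the pre_Liver libraries, these also held the least Epcam (22.6 and 34.5 TPM) and the most Alb (57428 and 61994 TPM). The part of that mixture in the 3 ligand levels was not tested. Ccl8 measured 177, 57.5, 38.3, 852 and 2086 FPKM in post_Liver and 277, 147, 79.4, 68.1 and 96.3 FPKM in pre_Liver (1.01 ± 1.02, 0.446), and its treated group spread on both sides of the untreated one.

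**Figure D3:**
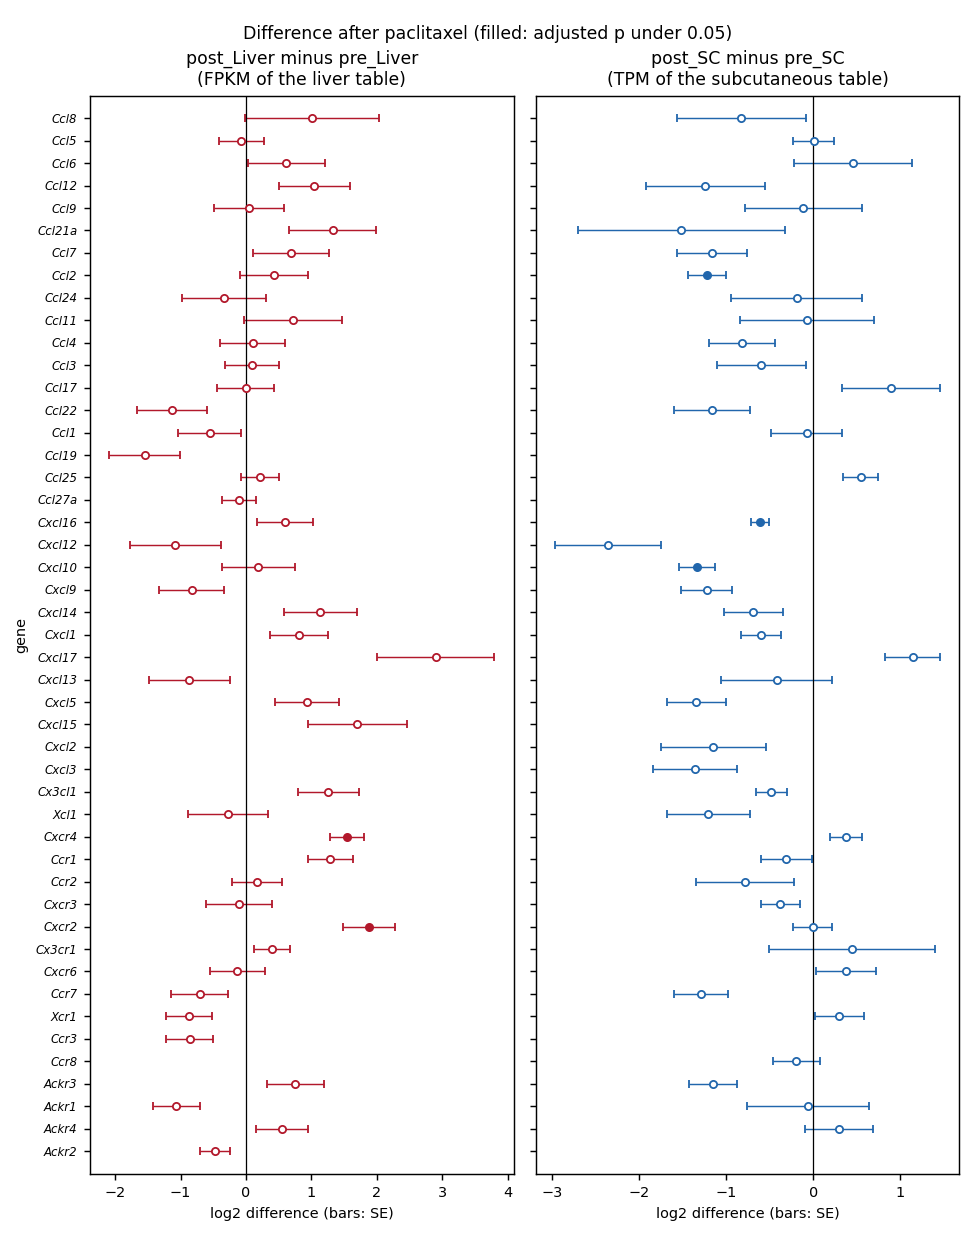
Log2 difference after paclitaxel (across, with the SE as bars) for the tested members shown (down), in liver tumors on log2(FPKM + 1) at left and in subcutaneous tumors on log2(TPM + 1) at right, with filled points at a limma adjusted p under 0.05. Filled points are Cxcr4 and Cxcr2 in liver tumors, at 1.55 and 1.88, and Cxcl10, Ccl2 and Cxcl16 in subcutaneous tumors, at −1.34, −1.22 and −0.62.

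Liver and subcutaneous tumors were next compared before treatment, in TPM over shared genes. Since the libraries came from separately deposited tables, each was rescaled on its own, and levels set across them rest on that rescaling. Of 48 members tested, 8 were higher and 7 lower in pre_Liver than in pre_SC. Ccl19, Cxcl12, Cxcl13 and Ccl5 were the higher ligands and Ackr1, Ackr2, Ccr3 and Cxcr5 the higher receptors. The lower members were the ligands Cxcl14, Cxcl5, Cx3cl1, Cxcl2, Cxcl3 and Cxcl16 and the receptor Ackr3. Ccl19, Ackr2, Ccr3 and Cxcr5 had a mean below 1 TPM in pre_SC, and Cxcl3 had one in pre_Liver. Each thus passed the filter only through its higher group, and these calls are not independent of the filter. The share called lay beside 48.0% of all genes (14.8% higher and 33.2% lower), with members at 16.7% higher and 14.6% lower. Liver and subcutaneous libraries were fully separated for 16 of 48 members, beside 51.8% of all genes. The members' median difference was 0.22, and that of all genes was −0.52.

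Another scaling changed that split. Median-of-ratios scaling moved the median of all genes to −0.02 and called 15 members higher and 5 lower, rescaling without liver-function genes called 14 higher and 5 lower, and quantile normalization called 11 higher and 7 lower. The split of all genes changed as well. It was 3074 higher and 2467 lower of 13417 with median of ratios and 2900 and 2300 of 13472 after the rescaling. With quantile normalization it was 2338 and 4264 of 13455, beside 1993 and 4470 of 13455 in the main fit. Against pre_Liver replicates 1 to 3 alone, which in the authors' deposited table of untreated tumors share one constant per gene with the pre_SC libraries, 16 of 49 members were higher and 5 lower, beside 14.1% and 20.6% of all genes. Ccl19, Cxcl12, Ccr3, Ackr2, Cxcl14, Cxcl5, Ackr3 and Cxcl3 held their call and direction under every alternative in which they were tested. Ackr1, Ccl5, Cx3cl1, Cxcl13, Cxcl16, Cxcl2 and Cxcr5 lost theirs under at least one, and Ccl5 and Cx3cl1 did so without any one pre_SC library.

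Of the ligands higher in liver tumors, Ccl19, which guides Ccr7-bearing dendritic and T cells, was at 16.7, 11.7, 29.3, 3.22 and 6.95 TPM in pre_Liver and at 0, 0.318 and 0 TPM in pre_SC, a log2 difference of 3.43 ± 0.57 (limma adjusted p = 0.00302). Cxcl12 was at 193, 101, 251, 335 and 290 TPM in pre_Liver and at 10.1, 32.9 and 53.7 TPM in pre_SC, without overlap (2.99 ± 0.55, 0.00495). Cxcl13, the B cell ligand of Cxcr5, was at 50.6, 11.3, 10.7, 8.53 and 5.32 TPM in pre_Liver and at 2.57, 0.816 and 5.57 TPM in pre_SC, where 1 library overlapped the liver range (1.95 ± 0.67, limma adjusted p = 0.0423). Cxcr5 lay between 0.621 and 4.99 TPM in pre_Liver and between 0.179 and 0.410 TPM in pre_SC (1.09 ± 0.38, 0.0452). Ccl5 was at 451, 228, 358, 170 and 205 TPM in pre_Liver and at 107, 127 and 107 TPM in pre_SC, with no overlap (1.21 ± 0.32, 0.0198).

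Of the receptors, the eosinophil receptor Ccr3 was at 2.38 to 8.09 TPM in pre_Liver and below 1 TPM in all pre_SC libraries (1.95 ± 0.36, limma adjusted p = 0.00504). The scavenger Ackr2, which degrades inflammatory CC ligands, was at 2.54 to 4.20 TPM in pre_Liver and 0.442 to 1.09 TPM in pre_SC (1.32 ± 0.21, 0.00266), and Ackr1 was at 8.36 to 12.4 TPM in pre_Liver and 1.07 to 7.07 TPM in pre_SC (1.72 ± 0.43, 0.0164). Ackr3 was the reverse, at 11.8, 8.73, 6.15, 9.53 and 6.10 TPM in pre_Liver and 25.0, 41.7 and 42.4 TPM in pre_SC (−1.98 ± 0.28, 0.00121). Ackr3 was therefore lower at the site where its ligand Cxcl12 was higher, and Cxcr4 had a difference of −0.35 ± 0.24 (limma adjusted p = 0.227).

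The ligands lower in liver tumors included 3 ligands of Cxcr2. Cxcl5 was at 2.82, 3.78, 1.21, 1.10 and 0.633 TPM in pre_Liver and 8.5, 17.3 and 22.1 TPM in pre_SC (−2.57 ± 0.42, limma adjusted p = 0.00305). Cxcl3 was at no more than 0.422 TPM in pre_Liver and at 0.547, 4.30 and 3.83 TPM in pre_SC (−1.43 ± 0.39, 0.0220), and Cxcl2 was at 0.307 to 2.90 TPM in pre_Liver and at 1.41, 10.0 and 7.77 TPM in pre_SC (−1.61 ± 0.53, 0.0374). For both, pre_SC replicate 1 was the low library. These are the genes whose promoters share the NF-kB letters shown above, and Cxcl1, which also holds that consensus, had −1.33 ± 0.51 (limma adjusted p = 0.0567). Members with the consensus went both ways. Ackr2 (1.32) and Ccr3 (1.95) were called higher in liver tumors. Without a call, Ccl9 (0.99) and Ccl1 (0.62) lay above 0 and Ccr1 (−1.02) and Cxcl10 (−0.80) below 0. Ccl20 and Ccr6 were below the filter. A link between the consensus and the site difference was not tested. Cxcl14, an epithelial ligand, was at 17.7, 39.3, 12.7, 8.57 and 5.97 TPM in pre_Liver and 127, 202 and 68.8 TPM in pre_SC (−3.05 ± 0.57, 0.00527). Cx3cl1 was at 12.2 to 76.0 TPM in pre_Liver and 106 to 156 TPM in pre_SC (−2.05 ± 0.54, 0.0196), and Cxcl16 was at 63.1 to 178 TPM in pre_Liver and 210 to 249 TPM in pre_SC (−1.09 ± 0.38, 0.0428).

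The 4 marker ligands were not called between sites. The differences were 0.22 ± 0.45 for Cxcl9, −0.80 ± 0.57 for Cxcl10, −0.58 ± 0.65 for Ccl2 and −1.44 ± 0.61 for Ccl8. With pre_Liver replicates 1 to 3 alone, Cxcl9 was higher by 0.79 (limma adjusted p = 0.0290). Ccl8 was called lower without pre_SC replicate 1 (−2.13, 0.0402) or without pre_Liver replicate 1 (−1.75, 0.0400).

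Some lists of cell type markers separated the sites as well, and others did not. All 12 hepatocyte genes were higher, with sums of 36260 to 154748 TPM in pre_Liver and 79.8 to 183 TPM in pre_SC, and all 8 carcinoma epithelial genes were lower, with sums of 585 to 3081 TPM in pre_Liver and 4815 to 5286 TPM in pre_SC. All 4 B cell genes were higher, with sums of 14.6 to 98.2 TPM in pre_Liver and 0.922 to 3.38 TPM in pre_SC. Of 4 tested Kupffer cell genes 3 were higher, and 4 of 8 endothelial genes were higher. Of 10 neutrophil genes 3 were higher and 1 lower, and of 8 fibroblast genes 2 were higher and 1 lower. Of 10 T and NK cell genes 1 was higher, as were 2 of 7 dendritic cell genes, and 1 of 10 macrophage and monocyte genes was lower. Neither of 2 tested eosinophil genes passed. In pre_SC the hepatocyte genes Apob, Cps1, Fgb and Tat and the B cell gene Ms4a1 stayed below 1 TPM. What these cells contributed to the 15 called members was not tested.

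**Figure D4:**
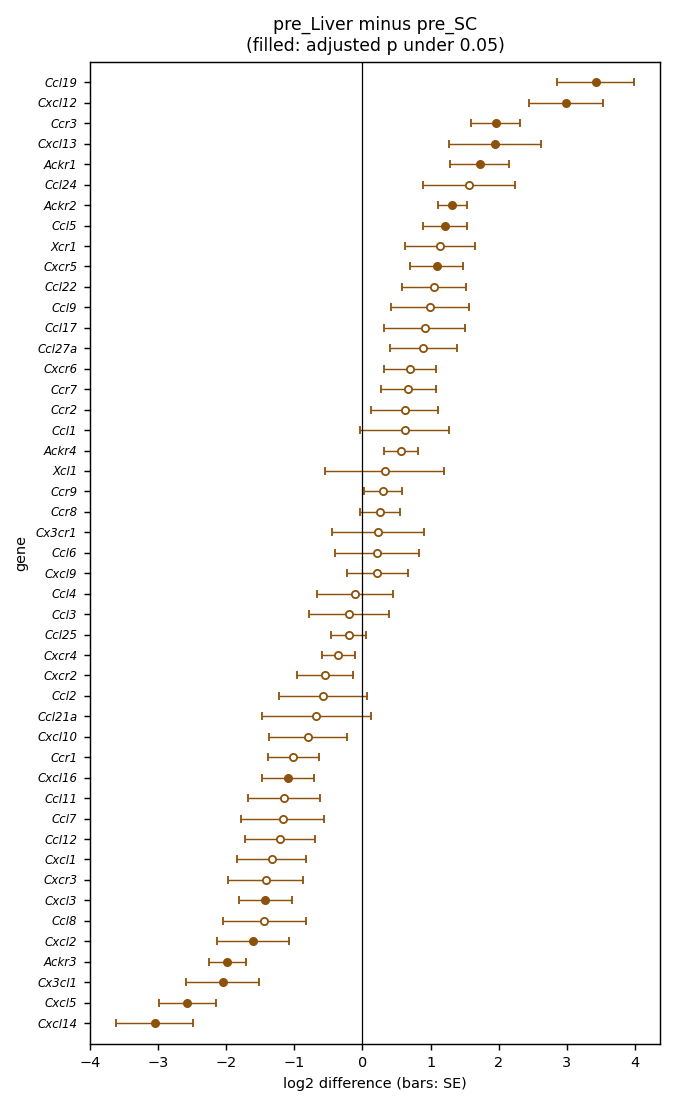
Log2 difference between untreated liver and untreated subcutaneous tumors (across, pre_Liver minus pre_SC, with the SE as bars, on log2(TPM + 1) over shared genes) for 47 of the 48 tested members (down), with filled points at a limma adjusted p under 0.05. Ccl19 and Cxcl12 stand at the top at 3.43 and 2.99, and Cxcl14 and Cxcl5 at the bottom at −3.05 and −2.57.

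Whether the response differed between the sites was tested as the liver response minus the subcutaneous response in one fit of all 16 libraries. None of 49 members passed, beside 2.99% of all genes (2.21% higher and 0.775% lower). An unadjusted p under 0.05 in limma was found for 11 members. The share of all genes at that cut was not computed, so this count has nothing to be set against. The receptors called in liver tumors gave 2.02 ± 0.62 for Cxcr2 (limma adjusted p = 0.0823) and 1.22 ± 0.39 for Cxcr4 (0.0927). The 3 ligands that fell in subcutaneous tumors gave 1.54 ± 0.80 for Cxcl10 (limma adjusted p = 0.230), 1.70 ± 0.77 for Ccl2 (0.187) and 1.23 ± 0.60 for Cxcl16 (0.211). The calls made at only one site were thus not shown to differ between sites. Without post_Liver replicates 2 and 3 together, 3 of 47 members were called, beside 558 of 13620 genes, among them Cxcr4 (1.54, limma adjusted p = 0.0315) and Ackr3 (2.63, 0.0232). Without pre_Liver replicate 2, 4 of 49 members were called, among them Cxcr2 (2.13, limma adjusted p = 0.0361), Cxcl5 (2.67, 0.0442) and Ccr1 (1.83, 0.0377). That fit called 2609 of 13681 genes.

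Treated tumors of both sites are given side by side without a test, since those libraries share no deposited table. Cxcr4 lay at 44.8 to 99.8 TPM in post_Liver and 32.0 to 45.8 TPM in post_SC, and Cxcr2 at 12.6 to 50.0 TPM in post_Liver and 8.69 to 12.7 TPM in post_SC. Cxcl12 lay at 28.0 to 353 TPM in post_Liver and 2.39 to 8.54 TPM in post_SC, so no treated subcutaneous library reached the lowest treated liver one. Cxcl10 lay at 44.6 to 234 TPM in post_Liver and 48.3 to 75.9 TPM in post_SC, Ccl2 at 17.7 to 41.8 TPM in post_Liver and 8.28 to 14.5 TPM in post_SC, and Cxcr3 at 5.16 to 23.1 TPM in post_Liver and 22.6 to 33.7 TPM in post_SC.

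Genes around the family were read from 5 pathway lists, whose counts stand beside the shares of all genes called. These shares were 2.24% higher and 1.41% lower in the liver response, 2.68% higher and 4.28% lower in the subcutaneous response, 14.8% higher and 33.2% lower between sites, and 2.99% for the difference between the responses. Of 6 chemokine genes and binding proteins outside the name rule, Pf4 and Ppbp, the platelet CXC chemokines, rose in liver tumors by 1.42 ± 0.24 and 1.85 ± 0.39 on the log2 scale (limma adjusted p = 0.0145 and 0.0328). In subcutaneous tumors Pf4 fell by 3.01 (limma adjusted p = 0.0168) and Rarres2, the chemerin gene, fell by 1.75 (0.0171). The responses differed between sites for Pf4 (4.53 ± 0.52, limma adjusted p = 0.00104) and Ppbp (2.49 ± 0.63, 0.0466). Before treatment 3 of the 6 were higher and 1 lower in liver tumors, among them Gpr182, an atypical chemokine receptor of sinusoidal endothelium (4.05 ± 0.46, 0.000403). Of 9 proteases that cut or shed chemokines, 3 rose in liver tumors, the neutrophil proteases Elane (4.66), Ctsg (4.60) and Mmp8 (3.60). In subcutaneous tumors 2 of 7 tested fell, the macrophage elastase Mmp12 (−3.64) and the sheddase Adam17 (−0.78), which releases Cx3cl1 from membranes. Before treatment 2 of the 9 were higher and 4 lower in liver tumors, the higher ones being Dpp4 (2.94), which clips Cxcl10 and Cxcl12, and Elane (2.87).

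The signalling list held 28 genes downstream of chemokine receptors. In liver tumors Rac2, a GTPase of leukocyte migration, rose by 1.32 and Arrb2, a beta-arrestin, by 1.12, and in subcutaneous tumors Jak3 fell by 1.10. Before treatment 9 of the 28 were lower in liver tumors, a share near that of all genes, and none was higher. The responses differed for the Src-family kinase Fgr (1.66), among others. Of 11 interferon pathway genes upstream of Cxcl9 and Cxcl10, 3 fell in subcutaneous tumors after paclitaxel, among them the transcription factors Irf8 (−0.97, limma adjusted p = 0.0152) and Irf1 (−0.80, 0.0177), and none passed in liver tumors. Before treatment 1 was higher and 4 lower in liver tumors. Of 13 NF-kB pathway genes, Il1b (−2.57, limma adjusted p = 0.00454) and Nfkb2 (−0.81, 0.0314) fell in subcutaneous tumors and none of 12 tested passed in liver tumors. Of the 13, 6 were lower in untreated liver tumors, led by Il1a (−2.09) and Nfkbiz (−1.80), and Il1b differed between the responses (2.27 ± 0.55, 0.0409). The medians of these lists after paclitaxel in subcutaneous tumors were −0.53 for the interferon and −0.46 for the NF-kB list, beside −0.03 over all genes.

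Many members lie in clusters on the GRCm38 genome, as annotated by GENCODE. Chromosome 11 holds 12 of the ligands, chromosome 5 holds 9 and chromosome 9 holds 13 of the receptors. The 5 CC ligand genes Ccl2 (chr11:82035571-82037453), Ccl7 (chr11:82045712-82047525), Ccl11 (chr11:82057823-82062955), Ccl12 (chr11:82101845-82103400) and Ccl8 (chr11:82115185-82116799) follow each other on the plus strand. Their subcutaneous differences were −1.22 for Ccl2, −1.16 for Ccl7, −0.07 for Ccl11, −1.24 for Ccl12 and −0.83 for Ccl8, with only Ccl2 called. Cxcl10 (chr5:92346638-92348889) and Cxcl9 (chr5:92321347-92328079) are on the minus strand, Cxcl16 is at chr11:70453983-70459984, Cxcr4 at chr1:128588199-128592293 and Cxcr2 at chr1:74153989-74161246, next to Cxcr1 at chr1:74191785-74194631. Ccl21a, Ccl27a and Ccl27b have near-identical copies in the genome, so their values are uncertain.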

How the data were processed

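Poly(A) RNA of 16 digested tumors was sequenced. Per the submitters' processing notes, fastp and StringTie were used with the build GRCm38 (mm10), with no versions or roles given. The deposited tables name no unit, so units were read from the values: the authors' liver table holds FPKM, the authors' subcutaneous table holds TPM, and the authors' deposited table of untreated tumors holds TPM plus a constant per gene and set of libraries, with 2382 genes and 15 members having values below 0. That last table was used only as an alternative. Read depth is unknown, so no counting interval is given.

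From the first pair of tables, TPM was recomputed over the 17064 shared genes, each library summing to the same total. Fits used limma 3.58.1 in R 4.3.3 (lmFit, eBayes with trend) on log2(value + 1), for genes with a mean of at least 1 in the libraries fitted, with group as the only term. The added 1 understates folds of low genes. Benjamini-Hochberg adjustment ran over all genes tested and calls were made under 0.05. The subcutaneous response used TPM as deposited, the liver response FPKM as deposited, and the site comparison and the difference between the responses used recomputed TPM. The scripts were tested on simulated data. Tables and figures used Python 3.11.15, pandas 2.3.3, NumPy 2.4.6 and matplotlib 3.10.9.

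The members and lists were chosen with earlier results of these data known. Named members are the 4 marker ligands, all called members, the 10 ligands and 8 receptors with the highest mean TPM, and the ligands of named receptors. Pathway lists are given by counts and up to 4 called genes in order of p. Some genes that these rules select are not reported here by name, in text or figures, and stay in the counts. Alternatives varied the pseudocount, filter, scaling, model, table and libraries. Motifs were sought on both strands of RefSeq promoter windows (GRCm38.p6), and gene positions are those of GENCODE for GRCm38, counted from 1. Protein sequences were not used here.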

Additional observations from a re-analysis of the deposited data

Results flagged for a closer look

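Among 48 groups of 5 liver libraries tested for a single distant library (24 members, log2 scale), 2 were picked out, and chance picks out about 1 group in 20. Ccr7, the lymph node homing receptor, was at 13.2 FPKM in pre_Liver replicate 1, against 3.19 to 4.13 FPKM in the other pre_Liver libraries. Cx3cl1, the ligand of Cx3cr1, was at 19.83 FPKM in post_Liver replicate 4, against 40.17 to 48.81 FPKM in the other post_Liver libraries. Neither gene was called in the liver response.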

How the results depend on the processing

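Depth is unknown, the groups are small, and most calls rest on few libraries. In the subcutaneous response 5 members were called with a filter at a mean of 5, with median-of-ratios scaling and with TPM over shared genes, and 0 to 5 when 1 library was left out. Of all genes, the filter called 916 of 10905, the scaling 904 of 13379 and TPM over shared genes 932 of 13133. Leaving out 1 library called between 78 of 13401 genes (pre_SC replicate 1) and 775 of 13243 (post_SC replicate 2). In the liver response 0 were called with median-of-ratios scaling, 0 with quantile normalization, 1 after rescaling without liver-function genes (Cxcr1, higher) and 1 against pre_Liver replicates 1 to 3 (Xcr1, lower), so that neither Cxcr4 nor Cxcr2 was called in these 4 fits. Of all genes, these fits called 221 of 12965, 322 of 13008, 266 of 13813 and 78 of 13114 in that order, beside 474 of 13008 in the main fit. When 1 library was left out, 1 to 6 were called. The 6 came without post_Liver replicate 4, where 1800 of 13027 genes were called. Chosen after seeing the data, 1 was called without both post_Liver replicates 2 and 3, 1 with these averaged, and 0 without pre_Liver 4 and 5 and post_Liver 2 and 3. Those fits called 139 of 12850, 159 of 12932 and 35 of 12991 genes. Between sites 27 of 47 were called in the untreated table as deposited, beside 7874 of 13651 genes, and 7 to 20 when 1 library was left out. The 20 came without pre_Liver replicate 1 or 2, where 6156 of 13448 and 9218 of 13427 genes were called. For the difference between the responses 2 of 57 were called with no filter, beside 459 of 17064 genes. Without both post_Liver replicates 2 and 3 the count was 3 of 47, beside 558 of 13620 genes. It was 0 to 4 when 1 library was left out. Other alternatives, the replicate block aside, stayed within 1.5 times the main count or at 0.

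The labels state no pairing by replicate number. Deviations of same-numbered treated and untreated libraries correlated at 0.13, −0.16 and −0.11 in the subcutaneous groups, where none correlated best with its own number. In the liver groups they correlated at −0.12 to 0.75. There replicates 2 and 4 correlated best with their own number (r = 0.68 and 0.75), and replicates 1, 3 and 5 with another. These correlations cannot decide whether the liver libraries were paired. With the replicate number as a block, 4 of 43 members were called in the subcutaneous response (Cxcl10, with Ackr3, Cxcl5 and Cxcl9 added and Ccl2 and Cxcl16 lost, at limma adjusted p = 0.0626 and 0.0599). The counts were 7 of 45 in the liver response, 21 of 48 between sites and 6 of 49 for the difference between the responses. Of all genes, that block called 337 of 13383 in the subcutaneous response and 3456 of 13008 in the liver response. It called 3616 of 13455 between sites and 2142 of 13681 for the difference between the responses.

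Directions reversed for uncalled values of marker ligands, and the cause was not tested. Cxcl10 in the liver response was −0.20 with median-of-ratios scaling, −0.089 after rescaling without liver-function genes, −0.57 against pre_Liver replicates 1 to 3, −0.39 without pre_Liver 4 and 5 and post_Liver 2 and 3, and −0.18 to 0.47 when 1 library was left out, below 0 without pre_Liver replicate 4 (−0.18) or 5 (−0.017) or post_Liver replicate 5 (−0.11). Ccl2 in the liver response was −0.36 against pre_Liver replicates 1 to 3 and −0.20 without pre_Liver 4 and 5 and post_Liver 2 and 3. Between sites Ccl2 was 0.25 with the replicate block, 0.25 with pre_Liver replicates 1 to 3 and 0.33 in the untreated table as deposited, and Cxcl9 was −0.00071 to 0.51 when 1 library was left out, below 0 without pre_Liver replicate 1. Cxcl9 for the difference between the responses was −0.074 with median-of-ratios scaling.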

Other observations

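Cxcl17 and Cxcl15 were high together in post_Liver replicates 1 to 3, a pattern noticed in the data. Cxcl17 was at 19.7, 81.8, 65.2, 1.33 and 1.59 TPM in post_Liver and at most 0.768 TPM in pre_Liver, and Cxcl15 at 5.40, 27.7, 24.7, 0.193 and 0.1 TPM in post_Liver and at most 0.921 TPM in pre_Liver. Of a list of 7 lung epithelial genes chosen after these values were seen, the summed level was 7.63 to 33.4 TPM in post_Liver and 2.38 to 5.98 TPM in pre_Liver. The sums of the subcutaneous groups overlapped those of post_Liver, at 9.26 to 18.8 TPM in post_SC and 7.01 to 11.7 TPM in pre_SC. In post_Liver, Lamp3, Scgb1a1 and Sftpb of that list stayed below 1 TPM, and Sftpd, a surfactant protein gene, was at 14.0, 21.8, 11.8, 5.64 and 4.94 TPM. In pre_Liver Sftpd was at 0.921 to 2.55 TPM, and it did not pass 0.533 TPM in any subcutaneous library. Ager of the list was at 1.30 to 7.23 TPM in post_Liver and 4.16 to 13.8 TPM in post_SC. Sftpc was at 0 to 3.57 TPM in post_Liver and 1.39 to 4.29 TPM in pre_SC.

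Ccl11, the eosinophil ligand eotaxin, was at 4.68, 1.92, 0.930, 7.54 and 53.5 FPKM in post_Liver and at 2.46 to 4.48 FPKM in pre_Liver, so that its highest value lay in the library that was also highest in Ccl8. Eosinophil markers (3 genes) summed to 19.8 to 142 TPM in post_Liver and 1.06 to 55.9 TPM in pre_Liver, and the Ccl11 receptor Ccr3 was at 0.260 to 3.19 FPKM in post_Liver and 1.22 to 4.04 FPKM in pre_Liver.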
